A study of Mus musculus with 6 samples.

Results

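A group of 10 enzymes and carriers that make, convert or break down steroid hormones was followed in the neonatal mouse brain. They were Star, Srd5a3, Akr1c14, Hsd17b1, Hsd17b2, Hsd17b4, Hsd17b10, Hsd17b12, Hsd11b1 and Cyp7b1. They were taken as a fixed list of 10 gene symbols, and every probe set that the array's annotation paired with exactly 1 of them was used. This gave 21 probe sets of 34945 single-gene probe sets, and 10 genes of 18193. A probe set is a group of short probes on the array that reads one stretch of a transcript.

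The series measured whole-brain RNA of C57BL/6 mice (C57BL/6J in the treatment protocol) on 6 Affymetrix arrays. On postnatal day 2 each mouse received an intraperitoneal injection of sesame oil (20 µL), which either held 1 mg of testosterone propionate (TP), an ester that releases testosterone, or was given alone as vehicle. Brains were taken on postnatal day 6, and each array received RNA pooled from 6 mice. Females had 2 arrays per treatment and males 1. The later female arrays are labelled replicas, with no word on whether other mice were pooled. The spread within female pairs, on which every p-value draws, could thus be purely technical. In the fits of TP and of sex over 6 arrays, the spread also holds any difference between the female and male TP effects.

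Neurons and glia can take up circulating testosterone and convert it locally. Aromatase turns it into estradiol, which masculinises the rodent brain around birth, and 5-alpha reductases turn it into dihydrotestosterone, the stronger androgen. The Hsd17b family of hydroxysteroid dehydrogenases interconverts weak and strong androgens and estrogens, and several of them also act on fatty acids. The injected hormone is thus a substrate of some of these enzymes, and the arrays ask whether their transcripts differed in level after the injection.

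The values were deposited as RMA values on a log2 scale, so that 1 unit is a doubling. Medians of the arrays lay between 5.69 and 5.74. All 8 measured neuronal markers, such as Snap25 and Tubb3, and all 7 measured glial markers stood above background on every array. The male TP array departed from its label at Xist, the RNA of the inactive X chromosome. Xist stood at 10.45 there, against 5.29 in the male vehicle array and 12.61 to 12.83 in the 4 female arrays. The Y-linked gene Eif2s3y stood at 9.12 and 9.16 in the male arrays and at 2.84 to 3.10 in the female ones. The summed level of 7 pituitary hormone genes was also highest in the male TP array, at 9.55 log2 units against 7.85 to 8.13 in the other 5. Gh (8.55 against 5.37 to 5.75) and Pomc (7.86 against 6.45 to 6.57) gave most of it. Cga and Tshb were highest there too, but Prl, Lhb and Fshb were not, and 3 of the 7 genes were above background. Many differences that use this array are therefore given also without it, for TP as the value in females.

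RMA values carry no detection call, so background was read from 79 probe sets of 71 olfactory, vomeronasal and trace amine receptor genes, which sensory neurons outside the brain use. Their 95th percentile lay between 4.88 and 5.32 on the 6 arrays. A probe set is called above background here when it exceeded that percentile on every array. By this rule 61.8% of all single-gene probe sets and 13 of the 21 member probe sets stood above background. These 13 belonged to 6 of the 10 genes. Counted by gene, among those in the promoter comparison below, 7955 had a probe set above background and 3836 had none. Of the 10 members, 4 were above background with all their probe sets, namely Hsd17b4, Hsd17b10, Hsd17b12 and Hsd11b1. Srd5a3 and Cyp7b1 were above it with 4 of 5 and 2 of 3. Star, Akr1c14, Hsd17b1 and Hsd17b2 had 0 above it. Without the male TP array 14 probe sets of 7 genes were above it, beside 63.5% of all, the added one being Star 1418729_at. Probes differ in how well they bind, so these values place each probe set against background and do not rank the enzymes by abundance.

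**Figure D1:**
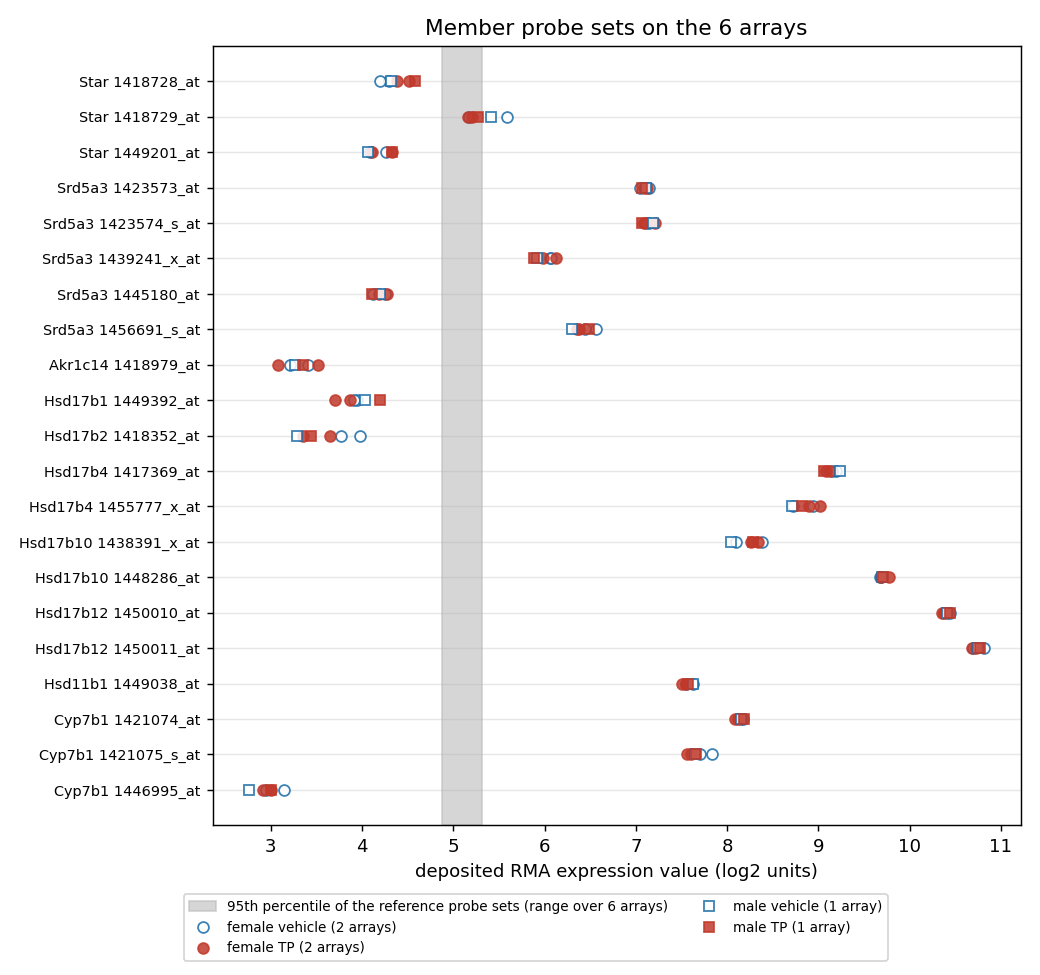
Deposited RMA expression values (log2 units, horizontal axis) of the 21 member probe sets (rows) on the 6 arrays; circles are female and squares male arrays, open symbols vehicle and filled symbols TP. The grey band spans the 95th percentile of the reference probe sets over the 6 arrays (4.88 to 5.32), and 13 probe sets lie to its right on every array while the points of a row lie close together.

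Promoter sequences from RefSeq (build GRCm38.p6, 250 bases before to 50 after the gene's start) were matched for 5 members, namely Srd5a3, Akr1c14, Hsd17b10, Hsd17b12 and Hsd11b1. Of these, 3 are shown because they run from a gene far above background to one within it and differ in CpG dinucleotides, which are in capitals. The first is Hsd17b12 (chr2:94157860-94158159, minus strand), the second Hsd11b1 (chr1:193242311-193242610, minus strand) and the last Akr1c14 (chr13:4059341-4059640, plus strand), each written 5′ to 3′ in the gene's direction.
Hsd17b12: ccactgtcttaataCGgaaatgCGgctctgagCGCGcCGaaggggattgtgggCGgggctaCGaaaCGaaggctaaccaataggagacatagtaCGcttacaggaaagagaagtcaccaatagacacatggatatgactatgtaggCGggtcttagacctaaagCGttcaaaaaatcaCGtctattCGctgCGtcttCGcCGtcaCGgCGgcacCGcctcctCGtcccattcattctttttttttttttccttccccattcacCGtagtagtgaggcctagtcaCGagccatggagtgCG
Hsd11b1: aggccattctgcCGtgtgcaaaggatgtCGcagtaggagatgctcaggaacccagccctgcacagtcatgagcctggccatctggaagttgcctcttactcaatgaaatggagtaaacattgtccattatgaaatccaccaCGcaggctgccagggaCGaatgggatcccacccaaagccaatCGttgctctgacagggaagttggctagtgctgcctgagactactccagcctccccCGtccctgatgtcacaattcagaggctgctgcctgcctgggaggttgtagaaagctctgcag
Akr1c14: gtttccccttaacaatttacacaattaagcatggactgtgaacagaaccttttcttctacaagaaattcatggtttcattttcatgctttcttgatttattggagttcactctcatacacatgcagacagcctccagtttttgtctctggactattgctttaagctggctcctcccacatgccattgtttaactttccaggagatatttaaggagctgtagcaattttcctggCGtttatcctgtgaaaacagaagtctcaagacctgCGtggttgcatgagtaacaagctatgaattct
Hsd17b12 had 23 CpG dinucleotides in these 300 bases, Hsd11b1 had 6 and Akr1c14 had 2. Srd5a3 had 26 and Hsd17b10 had 15. For comparison, the median was 21 over 7955 genes with 1 promoter in the table and a probe set above background, and 5 over 3836 genes with none above it. Akr1c14 thus lay below the median of the genes not above background, and Hsd11b1 lay far below that of the genes above it. The GC box GGGCGG, searched on both strands, was found in Srd5a3, Hsd17b10 and Hsd17b12, and in 35.7% of all 32851 promoters. The box CCAAT was found in 4 of the 5 (not in Srd5a3) and in 37.4% of all, and the TATA box TATAAA in 0 of 5 and 13.6% of all. The half-site of the androgen and glucocorticoid receptors, AGAACA, occurred in 0 of 5 and in 19.0% of all promoters, and the half-site AGGTCA of many nuclear receptors in 0 of 5 and 16.3%. The longer palindromic elements of the androgen and the estrogen receptor were found in 0 of 5 too, and in 0.0091% and 0.070% of all promoters. These are matches of letters in a short window, and no match says only that the letters are not in it.

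Within the Hsd17b family, Hsd17b12 stood far above the background line. It reduces estrone to estradiol in assays and is the ketoacyl-CoA reductase of fatty acid elongation. Its probe set 1450011_at read 10.69 and 10.81 in female vehicle, 10.68 and 10.72 in female TP, 10.75 in male vehicle and 10.77 in male TP. The TP arrays lay within the range of the vehicle arrays apart from the first female TP array, just below it. Over the 6 arrays, adjusted for sex, TP differed from vehicle by -0.031 log2 units (SE 0.063, 95% confidence interval -0.18 to 0.12, limma adjusted p = 0.876). The other probe set, 1450010_at, gave -0.032 (interval -0.17 to 0.11). As a fold of vehicle, the interval of the brighter probe set ran from 0.883 to 1.08.

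Hsd17b10 is a mitochondrial dehydrogenase that oxidises steroids, breaks down isoleucine and is a subunit of mitochondrial ribonuclease P. Probe set 1448286_at read 9.69 and 9.68 in female vehicle, 9.68 and 9.77 in female TP, 9.69 in male vehicle and 9.71 in male TP. The arrays spanned 0.089 log2 units, and the TP difference was 0.034 (SE 0.059, interval -0.10 to 0.17, adjusted p = 0.849). Its second probe set, 1438391_x_at, whose suffix marks probes that can match other transcripts, spread more. That one read 8.10 and 8.38 in female vehicle, 8.34 and 8.26 in female TP, 8.04 in male vehicle and 8.28 in male TP. The female vehicle arrays alone differed by 0.28, more than the TP difference of 0.12 (SE 0.088, adjusted p = 0.614).

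Hsd17b4, the multifunctional peroxisomal enzyme that oxidises estradiol and serves in beta-oxidation of very long fatty acids, was the member above background whose treatment groups did not overlap. Probe set 1417369_at read 9.20 and 9.15 in female vehicle and 9.24 in male vehicle. It read 9.08 and 9.12 in female TP and 9.06 in male TP, so that all 3 TP arrays lay below all 3 vehicle arrays. The gap between the groups was small, and the difference was -0.10 log2 units (SE 0.061, interval -0.25 to 0.038, fold 0.931, adjusted p = 0.520), which did not pass. Of all single-gene probe sets, 9.12% were lower without overlap in this comparison and 6.01% higher. Its other probe set, 1455777_x_at, had the opposite sign. It read 8.73, 8.94 and 8.71 in female and male vehicle and 9.01, 8.89 and 8.82 in TP, with a difference of 0.12 (SE 0.077, adjusted p = 0.552) and overlapping groups. In whole-brain RNA, fewer cells of a type and less RNA per cell cannot be told apart.

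Hsd17b1 and Hsd17b2 act in opposite directions, the former making estradiol from estrone and the latter inactivating estradiol and testosterone. Neither stood above background on any array. Hsd17b1 read 3.94 and 3.92 in female vehicle, 3.87 and 3.70 in female TP, 4.04 in male vehicle and 4.19 in male TP. Hsd17b2 read 3.77 and 3.98 in female vehicle, 3.65 and 3.35 in female TP, 3.29 in male vehicle and 3.44 in male TP. All of these values lay under the background line, and the TP differences over the 6 arrays were -0.042 (SE 0.085, adjusted p = 0.871) and -0.20 (SE 0.13, adjusted p = 0.563).

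Srd5a3 belongs to the 5-alpha reductase family and is best known as the polyprenol reductase of protein glycosylation. Its 5 probe sets had mean levels from 4.19 to 7.13. The brightest, 1423574_s_at, read 7.14 and 7.11 in female vehicle, 7.21 and 7.09 in female TP, 7.19 in male vehicle and 7.07 in male TP. The treatments overlapped, with a difference of -0.025 (SE 0.066, interval -0.18 to 0.13, adjusted p = 0.905). All 5 probe sets had TP differences between -0.030 and -0.0011, and each interval crossed 0. In females alone, without the male TP array, 1423573_at had 0.012, 1423574_s_at 0.023, 1439241_x_at -0.014, 1445180_at 0.041 and 1456691_s_at -0.14. The male pair of 1456691_s_at had 0.19. The member just inside the background rule was Srd5a3 probe set 1439241_x_at, at 5.89 to 6.12, and the one just outside was Star probe set 1418729_at.

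Akr1c14, a 3-alpha-hydroxysteroid dehydrogenase that reduces dihydrotestosterone further and makes neuroactive progesterone derivatives, was at background. It read 3.41 and 3.21 in female vehicle, 3.52 and 3.08 in female TP, 3.27 in male vehicle and 3.35 in male TP. The 2 female TP arrays were the highest and the lowest of the 6. No treatment difference could be read from it (0.021, SE 0.12, adjusted p = 0.959).

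Hsd11b1 regenerates active glucocorticoid from its inactive keto form. It read 7.55 and 7.63 in female vehicle, 7.51 and 7.54 in female TP, 7.62 in male vehicle and 7.57 in male TP. The female TP arrays were the lowest 2, but the male TP array lay above a female vehicle array. Its TP difference was -0.061 (SE 0.060, interval -0.20 to 0.079, adjusted p = 0.712).

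Cyp7b1 is the oxysterol and steroid 7-alpha-hydroxylase, which clears dehydroepiandrosterone and an estrogenic metabolite of dihydrotestosterone. Probe set 1421074_at was among the steadiest of the members, at 8.17 and 8.15 in female vehicle, 8.09 and 8.12 in female TP, 8.15 in male vehicle and 8.18 in male TP. Its TP difference was -0.027 (SE 0.059, interval -0.16 to 0.11, adjusted p = 0.881). Probe set 1421075_s_at read 7.71 and 7.84 in female vehicle, 7.60 and 7.56 in female TP, 7.65 in male vehicle and 7.66 in male TP. Both female TP arrays were below both female vehicle arrays, while the male pair was nearly equal. The difference over 6 arrays was -0.13 (SE 0.072, adjusted p = 0.513), and in females alone -0.19 (SE 0.084, interval -0.39 to 0.011, adjusted p = 0.646). The remaining probe set, 1446995_at, was at background, at 2.76 to 3.14.

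Star carries cholesterol to the inner mitochondrial membrane, the entry step of steroid synthesis. Its 3 probe sets did not read alike. Probe set 1418729_at, at 5.59 and 5.17 in female vehicle, 5.21 and 5.16 in female TP, 5.41 in male vehicle and 5.27 in male TP, exceeded the background line on 5 of 6 arrays and missed it on the male TP array. Its TP difference was -0.18 (SE 0.11, adjusted p = 0.527), and the female vehicle arrays differed from each other by 0.42. Probe set 1418728_at went the other way, at 4.30, 4.19 and 4.32 in vehicle and 4.38, 4.51 and 4.57 in TP. All 3 TP arrays lay above all 3 vehicle arrays, with a difference of 0.22 (SE 0.067, interval 0.063 to 0.38, adjusted p = 0.331), but no array reached the background line. Probe set 1449201_at, also below the line, had 0.12 (SE 0.091, adjusted p = 0.619).

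Across the members, no probe set passed the test for TP. In the 6-array comparison 0 of 21 passed limma at an adjusted p under 0.05, beside 0.00% of all single-gene probe sets (0 of 34945). At an unadjusted p under 0.05 there was 1 member probe set (Star 1418728_at) and 4304 of all, or 12.3%. With an intensity trend in the variance model 38 probe sets passed in all, none of them among the 10 members by their brightest probe set. The 13 probe sets above background had a median difference of -0.027, with 3 positive and 10 negative, beside a median of -0.013 and 44.5% positive over the 21579 above background in all. The 10 came from Srd5a3, Hsd17b12, Cyp7b1, Hsd11b1 and Hsd17b4, with several probe sets of a gene counted apart. Centring the arrays on their medians turned the brightest probe sets of Srd5a3 (0.0037) and Cyp7b1 (0.0012) positive. It left Hsd17b12 at -0.0020, Hsd11b1 at -0.032 and Hsd17b4 at -0.075. Without the male TP array 5 of the 13 were positive and 8 negative, beside 47.1% positive. Over the 6 arrays the differences of the 13 ran from -0.13 to 0.12, and the 95% confidence bound furthest from 0 was 1.25-fold, for Hsd17b10 1438391_x_at. Without the male TP array they ran from -0.19 to 0.12, and that bound was 1.31-fold, for Cyp7b1 1421075_s_at on the lower side. Member groups did not overlap over the 6 arrays at 2 of 21 probe sets, beside 15.1% of all.

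**Figure D2:**
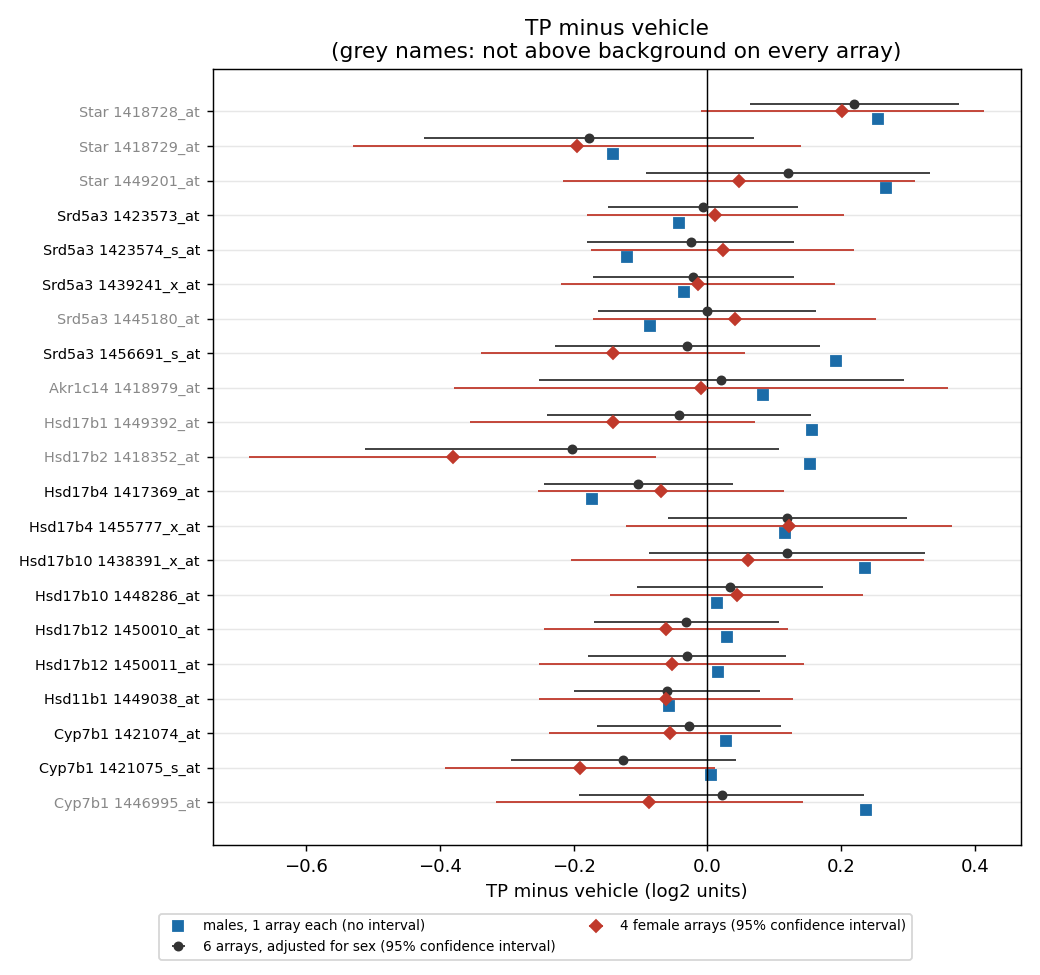
TP minus vehicle (log2 units, horizontal axis) for the 21 member probe sets (rows): black circles are the 6-array estimates adjusted for sex and red diamonds the female estimates, both with 95% confidence intervals, and blue squares the single male pair, which has no interval. The black intervals of the 13 probe sets above background (black names) all cross 0.

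No member passed in females alone either. Without the male TP array the 6-array comparison rests on the females alone, and all member differences are then those of the female comparison. Hsd17b4 1417369_at was then at -0.069, Hsd17b12 1450011_at at -0.054, Hsd17b10 1448286_at at 0.044, Hsd11b1 at -0.062 and Cyp7b1 1421074_at at -0.055. Star 1418728_at was at 0.20 (SE 0.088, adjusted p = 0.646), Srd5a3 1423574_s_at at 0.023, Hsd17b1 at -0.14 and Akr1c14 at -0.0098. Among further probe sets, Hsd17b4 1455777_x_at was at 0.12, Hsd17b10 1438391_x_at at 0.060, Hsd17b12 1450010_at at -0.062 and Star 1449201_at at 0.048. The sign of the 6-array difference thus turned for Srd5a3 and Akr1c14 and was kept by the others named here. There 0 of 21 member probe sets passed (smallest limma adjusted p = 0.597, for Hsd17b2), beside 0.00572% of all (2 of 34945). At an unadjusted p under 0.05 there was 1 member probe set, that of Hsd17b2, beside 7.83% of all. The Hsd17b2 difference in females was -0.38 (SE 0.13, interval -0.69 to -0.077), with both TP arrays below both vehicle arrays. This probe set was at background in all 6 arrays, and the male pair had 0.15. Of the 21 member probe sets, 8 were lower and 1 higher in TP without overlap in females, beside 22.5% and 16.0% of all probe sets and 38.4% in either direction. The 8 belonged to Srd5a3, Hsd17b1, Hsd17b2, Hsd17b4, Hsd17b12, Hsd11b1 and Cyp7b1, the last with a pair of probe sets. The difference was larger than the wider of the gaps within the 2 female pairs at 5 of 13 probe sets above background, or 38.5%, beside 26.9% of all that were above it.

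In males, with 1 array each and no test, differences of the members ran from -0.17 (Hsd17b4 1417369_at) to 0.27 (Star 1449201_at). Past 1.5-fold there were 0 of 21, beside 0.798% of all probe sets and 0.538% of those above background. The difference had the same sign in both sexes at 9 of 21 member probe sets, or 42.9%, beside 61.5% of all. Among the brightest probe sets the signs matched for Hsd17b4, Hsd17b10, Hsd11b1 and Star and were opposite for Hsd17b12, Cyp7b1, Srd5a3, Akr1c14, Hsd17b1 and Hsd17b2. The contrast of the female and male TP effects, which takes the spread of the lone male arrays from the females, passed for 0 of 21 (every limma adjusted p was 0.9999), beside 0.0200% of all. At an unadjusted p under 0.05 there was 1 member, Hsd17b2, beside 4.84% of all. Its contrast was -0.54 (SE 0.22, interval -1.06 to -0.0081), from values under the background line. Above background the interval that reached furthest from 0 was that of Srd5a3 probe set 1456691_s_at, from -0.68 to 0.0083.

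**Figure D3:**
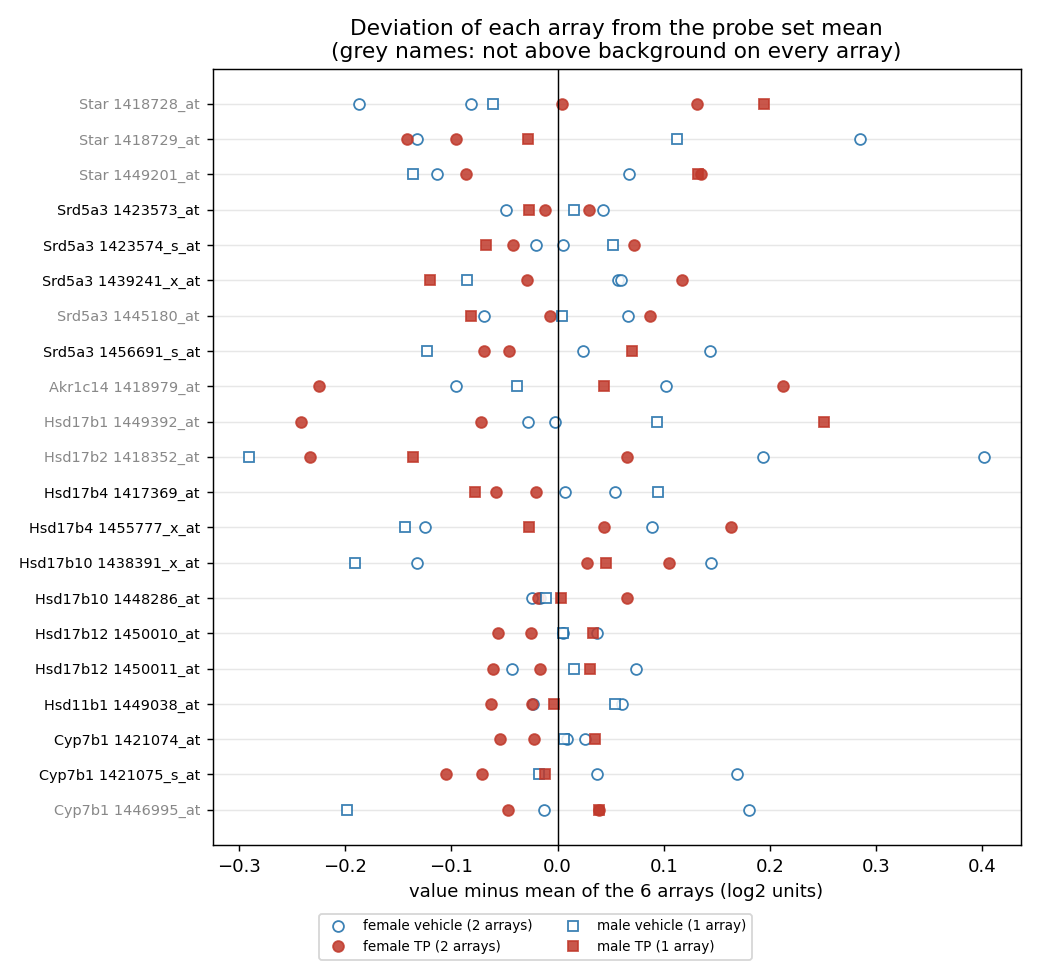
Value of each array minus the mean of the 6 arrays (log2 units, horizontal axis) for the 21 member probe sets (rows), with circles for female and squares for male arrays, open symbols for vehicle and filled ones for TP. Among the 13 probe sets above background (black names) the arrays span 0.089 to 0.34 log2 units.

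Of the 13 member probe sets above background, 9 spanned less from lowest to highest array than the median of all probe sets above background. The 13 spanned 0.089 to 0.34 log2 units with a median of 0.14, beside a median of 0.25 over all probe sets above background. Cyp7b1 1421075_s_at and Srd5a3 1456691_s_at, both at 0.27, were among those that spanned more than 0.25. The 5 arrays without the male TP array spanned 0.080 to 0.34 with a median of 0.13, beside 0.21. The widest were Hsd17b10 1438391_x_at and Hsd17b4 1455777_x_at. The probe sets of other genes that followed the former most closely over the 6 arrays were those of Med6 (Pearson r = 0.996), Anapc11 (0.995) and Mapkapk2 (0.994). Those closest to the latter were Commd1, Trim9 and Mphosph9 (r = 0.997, 0.997 and 0.995). Of 21566 probe sets compared, 149 and 90 had r above 0.95, and all of these values come from the same 6 arrays, normalised together. The named probe sets were the highest of that search, and with only 6 values each, high r follows in part from the search. How many would exceed 0.95 by chance was not computed. Over the 5 arrays without the male TP array these 6 correlations lay between 0.994 and 0.998. The 6 probe sets had been picked over arrays that include these 5 and were not ranked again. High values there follow from that choice, so they cannot tell whether the likeness holds without the male TP array.

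No member passed between the sexes either. In the comparison of males with females over both treatments, 0 of 21 member probe sets passed limma (smallest adjusted p = 0.341), beside 0.0114% of all, and 1 had an unadjusted p under 0.05, beside 12.5% of all. That was Hsd17b1, at 4.04 and 4.19 in males and 3.70 to 3.94 in females, where the sexes did not overlap but every value was at background (0.26 higher in males, SE 0.090). Without the male TP array the Hsd17b1 difference was 0.11 (SE 0.11, adjusted p = 0.815). Hsd17b2 had -0.32 (SE 0.14, adjusted p = 0.411) and, without the male TP array, -0.59 (SE 0.15, adjusted p = 0.510), again at background. Srd5a3 probe set 1439241_x_at read 5.92 and 5.89 in males and 5.98 to 6.12 in females, without overlap, and its difference of -0.15 (SE 0.068, adjusted p = 0.413) was -0.14 without the male TP array. The other 4 Srd5a3 probe sets overlapped between the sexes, and that of 1456691_s_at went from -0.039 to -0.21 without the male TP array (adjusted p = 0.877 and 0.640). Non-overlap between the sexes was seen at 1 of 21 member probe sets with males higher and 1 with males lower, beside 7.83% and 12.5% of all, or 20.4% in either direction. For Hsd17b12, Hsd17b10, Hsd11b1 and Cyp7b1, the brightest probe sets differed by 0.035, -0.0055, 0.038 and 0.031, with the widest interval from -0.12 to 0.19. Leaving out the male TP array gave 0.00018, 0.0090, 0.036 and -0.011, so that the signs of Hsd17b10 and Cyp7b1 turned.

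**Figure D4:**
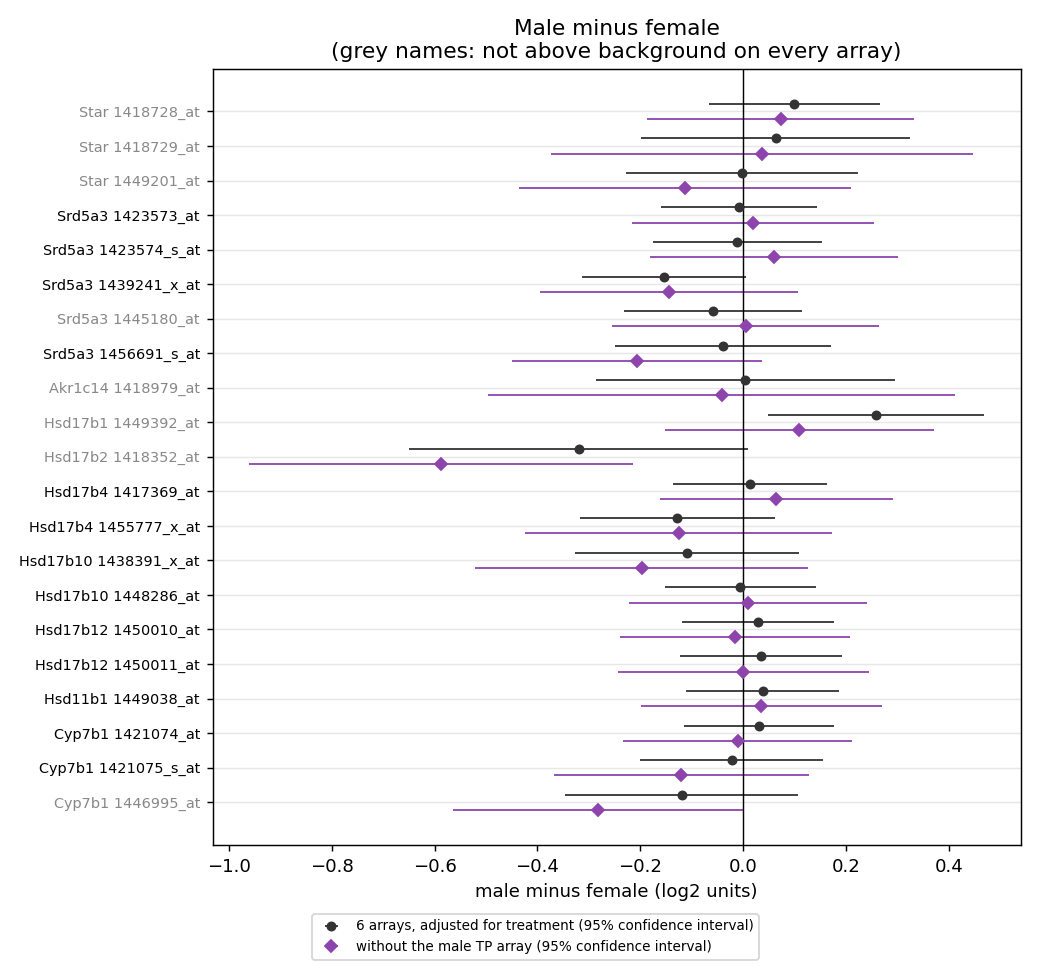
Male minus female (log2 units, horizontal axis) with 95% confidence intervals for the 21 member probe sets (rows), from all 6 arrays adjusted for treatment (black circles) and without the male TP array (purple diamonds). Hsd17b1 lies at 0.26 with all arrays and at 0.11 without the male TP array, and Hsd17b2 at -0.32 and -0.59.

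Other genes of steroid metabolism were read from 5 lists drawn up from knowledge of the pathway, each gene by its brightest probe set. Of 50 measured genes 31 stood above background. For comparison, among the genes of the promoter comparison 7955 had a probe set above background and 3836 had none. That comparison counts any probe set of a gene, not only its brightest. Aromatase (Cyp19a1) and the reductases Srd5a1 and Srd5a2, which act on testosterone itself, are not analysed here. All 9 measured genes of cholesterol entry and side-chain cleavage were above background, among them Tspo, a mitochondrial cholesterol-binding protein, at 6.83 to 7.00, and Cyp11a1, the side-chain cleavage enzyme, at 6.78 to 7.06. Cyp17a1, the enzyme that makes androgens from progestagens, was not, at 3.90 to 4.55. Of the list of androgen, estrogen and progestagen synthesis 4 of 9 were above background, of steroid oxidation and reduction 7 of 14, of corticosteroid metabolism 3 of 6 and of hydroxylation and conjugation 8 of 12.

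With TP over the 6 arrays, 0 of the 50 passed limma in either direction, beside 0 of 18193 genes by their brightest probe set. At an unadjusted p under 0.05 there were 4 of the 50, or 8%, beside 10.7% of the genes, and in females alone 1, beside 6.28%. The counts of positive and negative differences were 4 and 5 for cholesterol entry, 6 and 3 for androgen, estrogen and progestagen synthesis, 5 and 9 for oxidation and reduction, 2 and 4 for corticosteroid metabolism and 1 and 11 for hydroxylation and conjugation. In all 18 of 50 were positive, beside 37.9% of the genes, and in females alone 20 of 50, beside 40.8%. The hydroxylation and conjugation list had a median of -0.065, beside -0.029 over the genes. In females alone, without the male TP array, this list had 4 positive and 8 negative differences and a median of -0.052, beside -0.024. The lowest p among those above background belonged to H6pd, which supplies the cofactor that Hsd11b1 uses in the endoplasmic reticulum. H6pd read 6.64 and 6.45 in female vehicle, 6.24 and 6.21 in female TP, 6.54 in male vehicle and 6.20 in male TP. Every TP array lay below every vehicle array, by a mean of -0.33 log2 units (SE 0.070, interval -0.49 to -0.16), and the adjusted p was 0.294. In females alone the H6pd difference was -0.32 (adjusted p = 0.577) and in males -0.34. Hsd11b1, its partner enzyme, had -0.061.

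The next genes above background by p were Akr1c18, which inactivates progesterone, at -0.18, Sult2b1, a sterol sulfotransferase, at -0.14 and Cyp39a1, an oxysterol hydroxylase, at -0.16. Sult1a1, a phenol sulfotransferase, followed at -0.12 and Cbr3, a carbonyl reductase, at -0.11. Their adjusted p were 0.419 and higher. Sult1a1 and Cbr3 were lower in all TP arrays than in any vehicle array and the other 3 overlapped. Groups did not overlap, in either direction, at 8 of the 50 genes, H6pd among them, beside 15.1% of all single-gene probe sets. The genes named here were picked by p, which favours groups that do not overlap. In females alone, without the male arrays, Akr1c18 was at -0.084, Sult2b1 at -0.15, Cyp39a1 at -0.21, Sult1a1 at -0.097 and Cbr3 at -0.082. Between the sexes 0 of 50 passed, beside 0.0165% of the genes, and 15 differences were positive, beside 41.5% (18 and 43.3% without the male TP array), with the lowest p above background for Sult2b1 (-0.21 in males, SE 0.067, adjusted p = 0.319), Papss2, which makes the sulfate donor (-0.19, adjusted p = 0.393), and Cbr1 (-0.14, adjusted p = 0.422). Without the male TP array these 3 stood at -0.23, -0.057 and -0.19.

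Of 6 measured marker genes of steroid-producing glands, 2 were above background (Cyp11a1 and Cyp21a1, both also in the pathway lists), and the summed level of the 6 was 8.03 to 8.16 in vehicle and 8.03 to 8.11 in TP arrays. The meningeal and fibroblast list, all 8 genes of which were above background, ran from 13.90 to 14.07 in vehicle and from 13.87 to 13.99 in TP arrays. Of its genes 7 were lower with TP over the 6 arrays (median -0.082) and 4 in females alone. The choroid plexus sum, to which Ttr (13.99 to 14.09 alone) gave most, ran from 14.07 to 14.13 and from 14.09 to 14.15, and 6 of its 7 genes were lower with TP over the 6 arrays (median -0.093) and in females (median -0.060). None of these passed limma. Over all 18193 genes by their brightest probe set, 37.9% of the differences over the 6 arrays were positive (median -0.029). In females alone the share was 40.8% (median -0.024).

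Of the lists of tissues outside the brain, those of bone and of skin and hair each held 1 gene that passed limma in females. The summed bone list stood at 8.79 and 8.78 in female TP, against 8.14 to 8.28 in vehicle, and the male TP array lay below all of these. The summed skin and hair list ran from 9.80 to 10.06 in vehicle and from 9.77 to 9.85 in TP arrays. All 8 of its genes were lower in female TP than in female vehicle, where 40.8% of all genes had a positive difference. Krtap16-3, Krtap15, Krtap19-5 and Krtap8-1, none of them above background on every array, had -1.52, -1.23, -1.21 and -1.95. Krt5, Krt10, Krt14 and Lor had -0.12, -0.019, -0.17 and -0.079. The 2 probe sets that passed in females, named after their values were seen, were those of Ibsp, a bone matrix protein (1.64 higher), and Krtap19-5, a hair keratin-associated protein (-1.21), both with limma adjusted p = 0.035 and neither above background on every array. In males Ibsp was at -1.11 and Krtap19-5 at -0.67. The part of any of these tissues in the levels of the 10 genes was not tested.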

How the data were processed

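Whole-brain RNA was measured on 6 Affymetrix arrays. The authors deposited log2 expression values of 45101 probe sets, made with RMA per the submitters' processing notes (version not given in the sources used here). RMA corrects background, quantile-normalizes and summarizes probes, which compresses differences of dim probe sets, and the number of arrays limits the precision. The 64 array controls were left out. Of the rest, 34945 probe sets had 1 gene in a platform annotation table, 932 several and 9160 none. Gene identifiers of 34741 were found in RefSeq (GRCm38.p6, names only).

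Tests ran over every single-gene probe set with R 4.3.3 and limma 3.58.1 (two-sided, Benjamini-Hochberg over 34945, adjusted p under 0.05): TP over 6 arrays adjusted for sex, TP in 4 female arrays, sex adjusted for treatment, and the contrast of TP effects in a model of 4 groups. Every adjusted p is from limma, in these fits or in the same fits without the male TP array or under an alternative. The fits of TP over 6 arrays and in females were tested on simulated data. Named genes were all members, pathway genes past the threshold, and the 6 and 3 of them above background with the lowest p for TP and sex. Cyp19a1, Srd5a1 and Srd5a2 were named but not analysed. Also named were the sex check genes and the 3 probe sets most like each of the 2 members with the widest span. Members, lists and tests were chosen with earlier results of these data known. Alternatives changed the probe set level, dim filter, normalization, variance model, block, background line and arrays. Python 3.11.15, pandas 2.3.3 and matplotlib 3.10.9 were used.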

Additional observations from a re-analysis of the deposited data

How the results depend on the processing

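The small number of arrays limits every comparison, and the values of Star, Akr1c14, Hsd17b1 and Hsd17b2 are further limited by signal at background. No member passed, by its brightest probe set, under any alternative run (smallest adjusted p = 0.202 for TP over 6 arrays, 0.347 in females, 0.287 for sex and 0.674 for the contrast of TP effects). The member count above background was 11 at the 99th percentile of the reference, beside 47.0% of all probe sets. Against the highest Y-linked probe set in females it was 19, beside 88.0%, and 33 of the 79 reference probe sets passed that line too. The main rule gave 13, beside 61.8%. Without 1 array the count was 13 to 14, beside 61.8% to 63.5%. Of all probe sets, TP over 6 arrays gave 38 with the intensity trend and 0 to 2 without 1 array (2 without either male array), beside 0. In females the count was 5 with the brightest probe set of a gene, 1 with dim probe sets left out, 6 after quantile normalization again, 6 after centring, 16 with the trend and 0 without any 1 array, beside 2. For sex it was 0 with dim probe sets left out, 37 with the trend and 3 to 14 without 1 array (14 without the male vehicle array), beside 4. For the contrast of TP effects it was 2 with the brightest probe set, 2 after averaging the probe sets per gene, 12 with the trend and 6 without any 1 female array, beside 7. An array left alone in its group was assumed to vary like the others. The labels do not say that original and replica arrays are paired; their deviations correlated at 0.11 between the female groups. With this replicate block the counts were 0, 2, 2 and 7 for TP over 6 arrays, TP in females, sex and the contrast, and the cause of the change for sex was not tested.

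Some signs turned, also of Star (-0.18 over 6 arrays and -0.19 in females) and Hsd17b4 (-0.10 over 6 arrays). Averaging a gene's probe sets gave, over 6 arrays, 0.055 for Star and 0.0080 for Hsd17b4; in females 0.018 for Star, -0.016 for Srd5a3 and 0.026 for Hsd17b4; for sex -0.058 for Hsd17b4 and -0.037 for Cyp7b1; and -0.074 for Hsd17b10 in the contrast of TP effects. Here averaging mixes probe sets of opposite sign. Centring gave 0.0037 for Srd5a3 and 0.0012 for Cyp7b1 over 6 arrays, 0.014 for Akr1c14 in females, and 0.013 for Srd5a3 and 0.019 for Hsd17b10 for sex. Quantile normalization again gave 0.026 for Akr1c14 in females and, for sex, 0.037 for Srd5a3, -0.050 for Akr1c14 and 0.034 for Hsd17b10. The replicate block gave, for sex, -0.052 for Star, -0.15 for Akr1c14 and 0.014 for Hsd17b10. Vehicle arrays alone gave, for sex, 0.060 for Srd5a3, -0.042 for Akr1c14, 0.0090 for Hsd17b10 and -0.011 for Cyp7b1. Leaving out 1 array gave these ranges over 6 arrays: -0.095 to 0.15 for Akr1c14, -0.14 to 0.035 for Hsd17b1, -0.057 to 0.0093 for Hsd17b12 and -0.071 to 0.023 for Srd5a3. In females they were -0.23 to 0.21 for Akr1c14, -0.11 to 0.0048 for Hsd17b12, -0.034 to 0.079 for Srd5a3 and -0.40 to 0.013 for Star. For sex they were -0.096 to 0.091 for Akr1c14, -0.011 to 0.073 for Cyp7b1, -0.021 to 0.014 for Hsd17b10, -0.038 to 0.064 for Hsd17b4, -0.083 to 0.060 for Srd5a3 and -0.022 to 0.16 for Star. For the contrast of TP effects they were -0.31 to 0.13 for Akr1c14, -0.046 to 0.038 for Hsd11b1, -0.013 to 0.071 for Hsd17b10 and -0.26 to 0.15 for Star.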
